A study of Mus musculus with 40 samples.

Results

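The colony-stimulating factors and their receptors were described in primary mammary tumors of mice. The genes were those of the 3 ligands, Csf1 (M-CSF), Csf2 (GM-CSF) and Csf3 (G-CSF), and of the 4 receptor chains, Csf1r, Csf2ra, Csf2rb and Csf3r. They were taken by symbol from a table of RNA-sequencing values, and 7 of the 7 were among its 14318 genes. Colony-stimulating factors are secreted proteins that keep myeloid cells alive and drive their growth and maturation. M-CSF acts on monocytes and macrophages through the receptor tyrosine kinase CSF1R, which it shares with interleukin-34. GM-CSF binds an alpha chain, encoded by Csf2ra, that pairs with a common beta chain, encoded by Csf2rb, which also serves interleukin-3 and interleukin-5. G-CSF acts on neutrophils and their precursors through the receptor encoded by Csf3r. In breast tumors, these factors are known for supporting tumor-associated macrophages and neutrophils.

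The tumors were grown from 4T1-luc or 66cl4-luc cells, a pair of mouse mammary carcinoma lines that carry luciferase and model triple-negative breast cancer. The cells were placed into the mammary ducts of lactating wild-type female BALB/c mice that had been mated at 8 weeks of age, with more 66cl4 than 4T1 cells inoculated. In each model, mice got no treatment, an antibody against the T-cell checkpoint receptor PD-1 (anti-PD-1, 200 µg/mouse), particles of the sugar polymer chitin (1 mg/mouse), or both agents (chitin + anti-PD-1), all by intraperitoneal injection. RNA was taken at 5 w p.i. from 5 tumors per group, apart from untreated 4T1 tumors (n = 4), of which the authors had left out tumor 3 for RNA degradation. A model is 1 cell line, and the cells of the host (immune cells, stroma, mammary gland) were sequenced together with the tumor cells. Both glands of a pair were inoculated, and the labels do not tie tumors to mice, so that the p-values below measure the spread between tumors, which might share a mouse.

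Reads per tumor on the listed genes ran from 5105898 to 14800352 (median 6590274). The 66cl4 tumors of the chitin-containing groups had more reads than the other 66cl4 tumors (mean 9901574 against 6446900), and the same held to a lesser degree in 4T1 (8436511 against 7034209). Levels are given as normalized counts, which are reads scaled by each tumor's size factor, and differences are given on the deposited variance-stabilized (VST) scale, which is close to log2 for well-expressed genes and compresses the differences of genes with few reads. The keratin and adhesion genes listed as markers of mammary tumor epithelium (6 of 6 measured) summed to 13849 to 50133 normalized counts in 4T1 tumors and to 3369 to 6020 in 66cl4 tumors. Fewer tumor cells and less of this RNA per tumor cell cannot be told apart here. The casein genes that mark lactating epithelium (3 of 6 listed markers measured) summed to 4.01 to 2825 in 4T1 tumors and to 0.711 to 544 in 66cl4 tumors.

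Promoter sequence is shown for 3 genes whose levels carry the results below: Csf1, which separated the models, and Csf2ra and Csf3r, a pair of receptor genes that followed macrophage or neutrophil markers. Each run holds the 250 bases before the start that the RefSeq promoter entry takes, 5′ to 3′ on the strand of the gene (build GRCm38.p6). For Csf1 this start is the end of the gene span given below, and for Csf2ra and Csf3r it lies 43 and 1218 bases inside that span, so that these windows lie partly or wholly within the gene. Capitals mark matches to GGGANNNNCC, a pattern bound by NF-κB, in Csf1, and to GAGGAA, a pattern bound by the myeloid factor PU.1, in both receptor genes. Csf1 lies on chromosome 3, minus strand (chr3:107760470-107760719), Csf2ra on chromosome 19, minus strand (chr19:61228419-61228668), and Csf3r on chromosome 4, plus strand (chr4:126024409-126024658).
Csf1: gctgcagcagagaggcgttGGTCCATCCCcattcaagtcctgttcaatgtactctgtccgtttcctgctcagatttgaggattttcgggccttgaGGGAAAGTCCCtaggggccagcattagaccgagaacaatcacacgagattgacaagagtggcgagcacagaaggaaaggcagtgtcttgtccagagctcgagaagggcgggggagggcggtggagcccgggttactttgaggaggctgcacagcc
Csf2ra: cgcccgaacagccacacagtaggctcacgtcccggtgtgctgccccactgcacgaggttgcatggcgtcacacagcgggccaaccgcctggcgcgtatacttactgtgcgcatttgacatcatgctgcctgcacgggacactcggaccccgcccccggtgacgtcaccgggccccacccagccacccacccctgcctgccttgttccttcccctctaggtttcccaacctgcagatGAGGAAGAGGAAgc
Csf3r: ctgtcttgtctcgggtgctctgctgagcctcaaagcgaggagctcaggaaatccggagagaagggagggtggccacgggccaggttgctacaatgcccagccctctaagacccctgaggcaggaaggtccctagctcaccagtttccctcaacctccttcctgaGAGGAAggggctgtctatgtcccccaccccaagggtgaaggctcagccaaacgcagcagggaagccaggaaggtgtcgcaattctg
In Csf1, the matches began 231, 155 and 154 bases before the start, and the last pair overlap on opposite strands. Such a match was found on either strand in 17.6% of 32851 RefSeq windows of this length. In Csf2ra, GAGGAA began 14 and 8 bases before the start and in Csf3r 86 bases before it, both on the strand of the gene, and 23.3% of the windows held this pattern on either strand. The Csf3r window also held GGGANNNNCC on the opposite strand, 129 bases before the start, which is not in capitals. Neither TGANTCA (a pattern bound by AP-1, in 6.75% of windows) nor TATAAA (in 12.4%) was present in the windows of Csf1, Csf2, Csf2ra and Csf3r. These letters are a description of the sequence, since binding was not measured. The Csf2 window held none of the 4 patterns and is not shown, and Csf3, Csf2rb and Csf1r are named only.

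Of the 7 genes, Csf3 and Csf1 had the largest differences between the models. Untreated 4T1 tumors had less Csf1 and more Csf3 than untreated 66cl4 tumors, and over all 39 tumors neither gene overlapped between the models. Of all genes, 17.9% did not overlap between the models. Each gene of the table had over 10 reads in at least 8 tumors. The 66cl4 tumors held at most 4 reads of Csf3 and 3 of Csf2. Both genes were thus listed only through 4T1 tumors, which partly fixes in advance that they are higher in 4T1. In the untreated tumors, 4 of the 7 genes passed the test (limma, Benjamini-Hochberg adjusted p under 0.05 over all genes), against a background of 55.8% of all genes. Of these 4, Csf3 and Csf2rb were higher in 4T1 and Csf1 and Csf1r lower, where 28.7% and 27.1% of all genes were higher and lower. When the difference was averaged over the 4 treatment groups, all 7 passed against a background of 78.8%, with 4 genes higher in 4T1 (40.8% of all genes) and 3 lower (38% of all genes). With so high a background, passing the test sets these genes little apart from others, and the sizes of their differences carry more information.

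**Figure D1:**
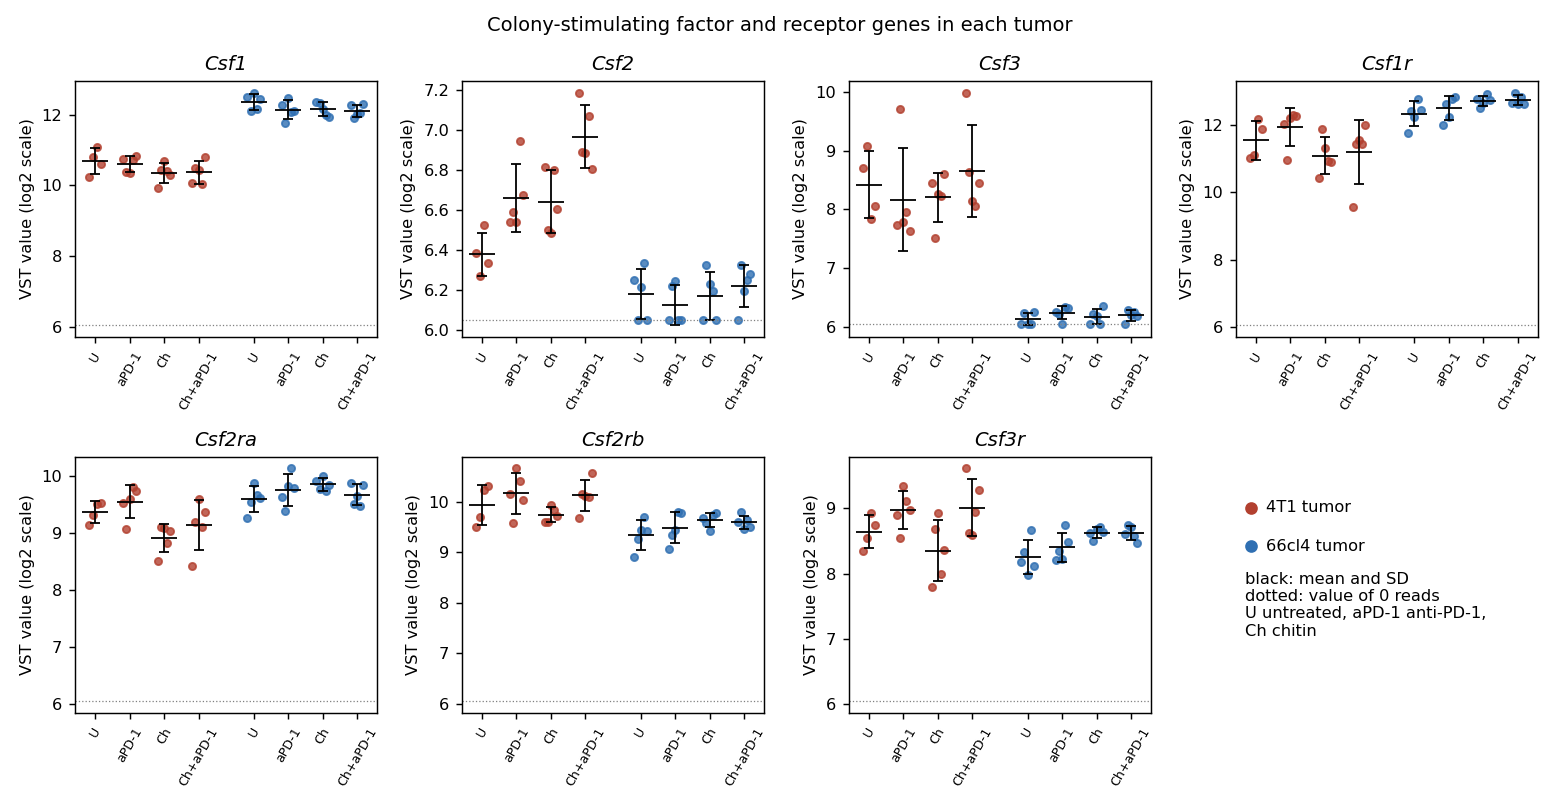
Each point is the VST value (log2 scale) of 1 tumor, by model and treatment, with the mean and SD of the group in black and the value of 0 reads as a dotted line; each panel has its own axis. Csf1 and Csf3 separate the 19 4T1 tumors from the 20 66cl4 tumors without overlap, whereas the receptor genes overlap.

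Csf1, the ligand of monocytes and macrophages, was the most abundant ligand in both models (gene ID 12977, on the minus strand of chromosome 3 from 107741048 to 107760469). In the untreated 4T1 tumors 1, 2, 4 and 5, it was at 1070, 1670, 2040 and 1426 normalized counts. In the untreated 66cl4 tumors 1 to 5, it was at 5616, 4284, 6146, 4417 and 5384 normalized counts. The lowest 66cl4 tumor thus stood well above the highest 4T1 tumor, and the means (1552 ± 409, SD, n = 4, and 5169 ± 799, n = 5) differed 3.33-fold. On the VST scale the difference was -1.68 (standard error 0.167, adjusted p = 2.04e-10, limma), and only 3.67% of all genes differed by as much or more. Over all treatments, 4T1 tumors ran from 847 to 2040 and 66cl4 tumors from 3344 to 6146 normalized counts, and the difference averaged over the groups was -1.68 (standard error 0.08, adjusted p = 7.46e-20, limma).

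Csf3, the ligand of the neutrophil lineage, showed the opposite picture (gene ID 12985, on the plus strand of chromosome 11 from 98700183 to 98703631). In untreated 4T1 tumors 1, 2, 4 and 5, it was at 296, 416, 115 and 151 normalized counts. The 5 untreated 66cl4 tumors held 0, 1, 0, 0 and 1 reads, which makes the gene nearly silent there at this depth. Pooled over tumors and scaled by size factors, the untreated 4T1 tumors had 490-fold more reads (757 against 2 reads, exact 95% counting interval 135 to 4056). Over all tumors, the ratio was 282 (4609 against 19 reads, interval 181 to 470), and 7 of the 20 66cl4 tumors had 0 reads. Both intervals are exact Clopper-Pearson limits that cover counting error only and not the spread between tumors. Csf3 was listed only through 4T1 tumors, so that the direction of its difference was partly fixed by the read minimum. On the VST scale, which compresses such ratios, the difference was 2.29 (standard error 0.311, adjusted p = 1.49e-07, limma) in untreated tumors and 2.18 (standard error 0.149, adjusted p = 2.35e-15, limma) over the groups.

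Csf2, the ligand that acts on granulocytes, macrophages and dendritic cells, was scarce in both models (gene ID 12981, on the minus strand of chromosome 11 from 54247270 to 54249899). Untreated 4T1 tumors 1, 2, 4 and 5 held 3, 1, 8 and 2 reads, and untreated 66cl4 tumors 1 to 5 held 1, 0, 1, 2 and 0 reads. Both groups were thus near the floor of detection. The pooled ratio was 4.53 with a counting interval from 1.42 to 18.9, and the VST difference of 0.20 (standard error 0.0912) did not pass the test (adjusted p = 0.0617, limma). It passed with limma-voom on recovered reads (adjusted p = 0.0383) and without untreated 4T1 tumor 2, anti-PD-1-treated 4T1 tumor 4 or untreated 66cl4 tumor 4 (adjusted p = 0.0459, 0.0446 and 0.0353). Over all treatment groups, 4T1 tumors held 1 to 53 reads and 66cl4 tumors 0 to 3, and Csf2 was higher in 4T1 by 0.49 on the VST scale (standard error 0.0437, adjusted p = 2.84e-12, limma), with a pooled ratio of 17.2 (interval 10.96 to 28.6). Csf2 too was listed only through 4T1 tumors, so that the direction of this difference was partly fixed by the read minimum.

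Among the receptors, Csf1r was lower in 4T1 and Csf2rb higher. Csf1r, the receptor tyrosine kinase of macrophages (gene ID 12978, on chromosome 18), measured 1935, 2103, 4555 and 3664 normalized counts in the 4 untreated 4T1 tumors and 3345, 5355, 4760, 6935 and 5414 in untreated 66cl4 tumors. The groups overlapped, since 4T1 tumors 4 and 5 were above the lowest 66cl4 tumor. The difference of -0.78 (standard error 0.33) passed the test narrowly (adjusted p = 0.0442, limma) and did not pass without any 1 of untreated 4T1 tumors 1 and 2 or untreated 66cl4 tumors 2, 3, 4 and 5 (adjusted p = 0.0557 to 0.16), nor with limma-voom on recovered reads (adjusted p = 0.0511). Over the 4 treatment groups, Csf1r was lower in 4T1 by a VST difference of -1.12 (standard error 0.158, adjusted p = 7.96e-08, limma), or 2957 ± 1293 (n = 19) against 6088 ± 1192 normalized counts (n = 20). As in all bulk samples, fewer macrophages and less Csf1r RNA per macrophage cannot be told apart.

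Csf2rb, the common beta chain (gene ID 12983, on chromosome 15 from 78325800 to 78351001), measured 599, 708, 1079 and 1148 normalized counts in the 4 untreated 4T1 tumors and 355, 494, 571, 702 and 559 in untreated 66cl4 tumors. Of the 4T1 tumors, 3 of 4 were thus above all 66cl4 tumors. The difference was 0.59 (standard error 0.184, adjusted p = 0.00654, limma) and 0.48 over the groups (standard error 0.0879, adjusted p = 8.7e-06). Csf2rb2 on the same chromosome (78282507 to 78305721) encodes a close copy of this chain, so that the split of reads between both genes is uncertain. Its level followed that of Csf2rb and was higher in 4T1 by 0.30 over the groups (standard error 0.108, adjusted p = 0.0113, limma).

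Csf2ra and Csf3r differed less. Csf2ra, the GM-CSF-specific alpha chain (gene ID 12982, on chromosome 19 from 61217191 to 61228461), averaged 539 ± 82.6 normalized counts without treatment in 4T1 (SD, n = 4) and 653 ± 116 in 66cl4 (n = 5), a VST difference of -0.23 that did not pass the test (adjusted p = 0.263, limma). Csf3r, the G-CSF receptor of neutrophils (gene ID 12986, on chromosome 4 from 126023441 to 126044975), measured 206, 252, 363 and 305 normalized counts in the 4 untreated 4T1 tumors and 171, 203, 136, 285 and 161 in untreated 66cl4 tumors. The Csf3r groups overlapped, and the difference of 0.39 did not pass either (standard error 0.191, adjusted p = 0.0854, limma). Without untreated 4T1 tumor 1 or without untreated 66cl4 tumor 4 it passed (adjusted p = 0.0491 and 0.0362). Over the 4 treatment groups, Csf2ra was lower in 4T1 by 0.48 and Csf3r higher by 0.27, as a VST difference of -0.48 (standard error 0.0813, adjusted p = 2.79e-06, limma) and of 0.27 (standard error 0.0914, adjusted p = 0.00842). For Csf3r, 51.9% of all genes differed between the models by as much or more.

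Per kilobase of exon (all GENCODE exons of a gene joined), the order of the levels differed between the models. In untreated 66cl4 tumors, Csf1 and Csf1r led with mean levels of 979 and 894 normalized counts per kb, followed by Csf2ra (228), Csf2rb (73.7) and Csf3r (53.0), with Csf2 (1.18) and Csf3 (0.351) near 0. In untreated 4T1 tumors, Csf1r led at 531 normalized counts per kb before Csf1 (294), Csf2ra (188), Csf3 (173), Csf2rb (121), Csf3r (78.0) and Csf2 (4.69). The neighbours Csf1 and Csf1r in 66cl4, and Csf2ra and Csf3 in 4T1, did not differ beyond their spread between tumors, which came to 15.4%, 25.1%, 15.3% and 56.7% of the mean (SD). Csf3 varied more than any receptor gene over the 4T1 tumors, with an SD of 84.97% of the mean (n = 19), and only Csf2 (76.9%) came near.

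The other genes of the pathway were counted from lists, and the counts below stand against 28.7% of all genes higher and 27.1% lower in untreated 4T1 tumors. Of 6 related ligands and receptors, 3 were measured (Il34, Il3ra and Csf2rb2), and 2 passed in the untreated comparison, both higher in 4T1: Il34, the other ligand of CSF1R (0.46, adjusted p = 0.0135, limma), and Il3ra, the interleukin-3 alpha chain (0.32, adjusted p = 0.0318). Of 20 genes of signal transduction below these receptors, 5 were higher in untreated 4T1 tumors and 1 lower, a share of higher genes near that of all genes (28.7%). The higher genes included Jak2, the kinase bound to the beta chain and the G-CSF receptor (2.36, adjusted p = 8.37e-14), Cish, a feedback inhibitor induced by STAT5 (2.28, adjusted p = 7.39e-12), Plcg2, a phospholipase (1.72, adjusted p = 8.13e-10), and Stat3, which G-CSF activates (0.68, adjusted p = 8.67e-08). The median difference of this list was 0.13, beside 0.016 over all genes. The adaptor Grb2 was the gene that was lower, with a VST difference of -0.37 (adjusted p = 4.85e-07, limma). Averaged over the 4 treatment groups, 6 genes of this list were higher and 7 lower, beside 40.8% and 38% of all genes. The median difference of the list was then -0.026.

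Of 9 myeloid transcription factors, 3 were higher in untreated 4T1 tumors and 1 lower (median difference of the list 0.027), beside 28.7% and 27.1% of all genes. These were Cebpb, which drives emergency production of granulocytes (1.05, adjusted p = 0.00122, limma), Irf8, a factor of monocytes and dendritic cells (0.78, adjusted p = 0.000368), and Runx1 (0.75, adjusted p = 3.5e-05). Klf4, a factor of monocytes that epithelial cells also express, was the lower one, with a difference of -1.33 (adjusted p = 4.89e-07). Spi1, which encodes PU.1, differed by -0.15 and did not pass (adjusted p = 0.49).

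Markers of the cells that carry these receptors differed in the same comparison, in which 28.7% of all genes were higher and 27.1% lower in 4T1. Of 12 neutrophil markers, 9 were measured and 8 were higher in untreated 4T1 tumors, led by Cxcr2 (0.78, adjusted p = 7.27e-05, limma), Ngp (1.21, adjusted p = 7.81e-05), Mmp8 (0.59, adjusted p = 0.000565) and S100a9 (1.45, adjusted p = 0.0019), and their summed level was 638 to 1495 normalized counts in untreated 4T1 tumors and 143 to 327 in untreated 66cl4 tumors. Ly6g, Mpo and Elane were not among the listed genes and could not be measured in either model. In chitin-treated 66cl4 tumors, the defining genes Ngp and Camp were at 0 reads in all 5 tumors. Camp was at 0 reads in all combination-treated 66cl4 tumors too. Such genes were listed through other tumors, where they had more reads. The read minimum may thus have partly fixed in advance that listed neutrophil markers are higher in 4T1, and their count is no independent support. Of 12 macrophage markers, 6 were lower in 4T1 and none was higher, and the leading ones had VST differences of -2.68 (Mrc1, adjusted p = 1.08e-06, limma), -0.96 (Cd68, adjusted p = 3.95e-06), -2.85 (Cd163, adjusted p = 2.58e-05) and -0.73 (Trem2, adjusted p = 0.00292). Summed macrophage markers overlapped, at 40287 to 69112 normalized counts in untreated 4T1 tumors and 50883 to 96451 in untreated 66cl4 tumors. Whether these cells account for the receptor differences was not tested.

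Of the remaining marker lists, those of T cells (5 of 8 genes), mammary tumor epithelium (5 of 6), dendritic cells (3 of 8), endothelium (3 of 5) and mast cells, basophils and eosinophils (3 of 5 measured of 8) had members that were higher in untreated 4T1 tumors and none that was lower. For fibroblasts, 2 of 6 were higher and 1 lower, for skeletal muscle 1 of 6 was higher, and for adipocytes (6 genes) and lactating mammary epithelium (3 measured of 6) none passed in untreated tumors (limma, counts at adjusted p under 0.05). The counts for dendritic cells and fibroblasts are near the 28.7% of all genes that were higher. Those for T cells, mammary tumor epithelium, endothelium, and mast cells, basophils and eosinophils lie above it, on few genes each.

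Treatment effects were asked within each model. In the 12 comparisons made (each of the 3 treatments against no treatment, groups with against groups without chitin, and the combination against each single agent, in both models), no gene of the table passed the test, so that the background was 0% and 0 of the 7 genes passed. At an unadjusted p under 0.05, 367 to 1307 genes were found per comparison in 4T1 and 440 to 2238 in 66cl4. Limma-voom on recovered reads also called 0 of the 7 genes in each of the 12 comparisons. The values below are therefore descriptions, given with the interval of each difference.

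The treated 4T1 tumors held more Csf2 reads. Its normalized counts in untreated tumors 1, 2, 4 and 5 were 3.55, 1.56, 7.29 and 2.62. With anti-PD-1, tumors 1 to 5 were at 7.71, 9.37, 7.68, 26.4 and 12.7, and with chitin at 18.96, 6.48, 6.10, 18.3 and 9.97. With chitin + anti-PD-1, they were at 43.3, 23.1, 22.8, 34.7 and 18.7. Every tumor of the combination group stood above every untreated tumor. Those of the anti-PD-1 group did so too, though narrowly (lowest 7.68 against 7.29), whereas 2 chitin-treated tumors fell within the untreated range. Each gene of the table had over 10 reads in at least 8 tumors. Csf2 had over 10 reads only in treated 4T1 tumors, with at most 8 reads in untreated ones and 3 in 66cl4. It was thus listed through the groups where it is high, so that this separation is no independent support. Against untreated tumors, 0.936% of all genes did not overlap in the combination group and 1.76% in the anti-PD-1 group.

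Pooled over tumors, the combination group had 7.22-fold more Csf2 reads than untreated tumors (140 against 14 reads, exact 95% counting interval 4.16 to 13.6), the anti-PD-1 group 3.33-fold more (67 reads, interval 1.85 to 6.41) and the chitin group 2.94-fold more (75 reads, interval 1.65 to 5.63). These intervals cover counting error only and not the spread between tumors. By tumor, the VST difference from untreated was 0.28 with anti-PD-1 and 0.26 with chitin, and neither passed (limma). With 1 tumor left out, the adjusted p was at least 0.157 for anti-PD-1 and 0.983 for chitin (limma). On the VST scale the combination differed from untreated by 0.59 (standard error 0.102, 95% interval 0.37 to 0.80), with an unadjusted p of 1.86e-05 and an adjusted p of 0.266 (limma), and 1.07% of all genes differed by as much or more. When both models were fitted together, the adjusted p was 0.00299, with the tumor number as a replicate block it was 0.0212, and over the fits that left out 1 tumor it ran from 0.0891 to 1. The 3 treated groups share the untreated tumors as controls. The combination differed from chitin by 0.33 (standard error 0.0965, adjusted p = 1, limma) and from anti-PD-1 by 0.31 (standard error 0.0965, adjusted p = 0.364).

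**Figure D2:**
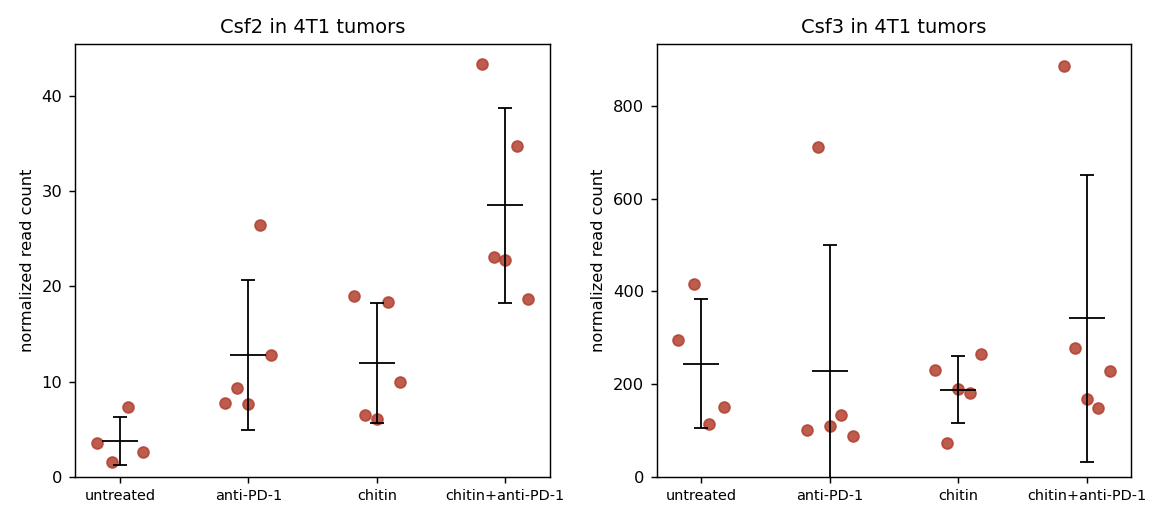
Normalized read counts of Csf2 and Csf3 in the 4T1 tumors by treatment, with 1 point per tumor and the mean and SD in black, on axes that start at 0, where the SD bar of Csf3 with anti-PD-1 is cut off. The 5 chitin + anti-PD-1-treated tumors lie at 18.7 to 43.3 for Csf2 against 1.56 to 7.29 in untreated tumors, and for Csf3 1 tumor of this group (887) and 1 of the anti-PD-1 group (712) stand apart.

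In 66cl4, Csf2 reads stayed at the floor of detection in every group, with sums of 4, 2, 6 and 8 reads over 5 tumors (no treatment, anti-PD-1, chitin, combination), and Csf3 was likewise at 2, 6, 6 and 5 reads (same order). No treatment difference of these ligands was detectable at this depth. In 4T1, Csf3 showed no common shift. The anti-PD-1-treated tumors 1, 3, 4 and 5 were at 87.7 to 134 normalized counts and tumor 2 at 712, the chitin-treated tumors at 74.0 to 265, and the combination-treated tumors 2 to 5 at 149 to 278 and tumor 1 at 887. The combination differed from untreated by 0.24 (95% interval -0.66 to 1.13, adjusted p = 1, limma), and without combination tumor 1 the difference was -0.097.

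Csf1 was within the range of untreated tumors or slightly below it after treatment. In 4T1, means were 1444 ± 241, 1200 ± 245 and 1218 ± 304 normalized counts with anti-PD-1, chitin and the combination (n = 5 each), against 1552 ± 409 without treatment. The Csf1 difference of 4T1 groups with chitin from those without was -0.28 (95% interval -0.55 to -0.011, adjusted p = 0.665, limma), and in 66cl4 it was -0.12 (interval -0.30 to 0.066, adjusted p = 0.548). In 66cl4, means were 4425 ± 822, 4458 ± 603 and 4286 ± 511 normalized counts, against 5169 ± 799 without treatment. All of these groups overlapped with untreated tumors.

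Between groups with and without chitin, each receptor gene had differences of opposite sign in the models, and none passed. In 4T1, Csf1r was at 1247, 3692, 2403, 1815 and 1800 normalized counts with chitin, at 635, 2652, 2873, 2635 and 3976 with the combination and at 4041, 1866, 4609, 4891 and 4791 with anti-PD-1. In 66cl4, it was at 5680 to 7577 with chitin, 6190 to 7863 with the combination, 3999 to 7177 with anti-PD-1 and 3345 to 6935 without treatment. The 4T1 groups with chitin thus reached lower, and the 66cl4 groups with chitin lacked the low tumors of the other groups. The chitin-containing groups differed from the others by a Csf1r difference of -0.61 in 4T1 (standard error 0.289, 95% interval -1.21 to 0.0021, adjusted p = 0.686, limma) and of 0.32 in 66cl4 (standard error 0.114, interval 0.081 to 0.56, adjusted p = 0.194). The difference between the models was -0.92 (standard error 0.316) with an adjusted p of 0.171, and it passed without anti-PD-1-treated 4T1 tumor 2 (-1.05, adjusted p = 0.0373). The background of this comparison was 0.0978% of all genes, and 0 of the 7 genes passed.

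Csf2ra behaved alike in sign. In 4T1, it was at 244, 423, 421, 329 and 400 normalized counts with chitin, below each of the 436, 508, 599 and 612 of untreated tumors. Of all genes, 0.74% did not overlap between these groups. With the combination, it was at 222 to 645, which spans the untreated range. The chitin-containing groups differed from the others by a Csf2ra difference of -0.43 in 4T1 (standard error 0.135, 95% interval -0.72 to -0.15, adjusted p = 0.58, limma) and of 0.088 in 66cl4 (standard error 0.0844, interval -0.088 to 0.26, adjusted p = 0.659). The difference between the models was -0.52 (standard error 0.163, adjusted p = 0.129), and without anti-PD-1-treated 4T1 tumor 2 it was -0.58 and passed (adjusted p = 0.0267).

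Over all tumors of a model, Csf3r and Csf2rb had wider spreads in 4T1 (SD 40.8% and 28.4% of the mean, n = 19) than in 66cl4 (22.3% and 18.8%, n = 20), which did not hold within every treatment group. In 4T1, Csf3r was at 109 to 364 normalized counts with chitin, 263 to 654 with the combination, 254 to 523 with anti-PD-1 and 206 to 363 without treatment, and all of these groups overlapped. The combination differed from chitin by 0.65 (standard error 0.224, 95% interval 0.18 to 1.12, adjusted p = 1, limma). In 66cl4, Csf3r was at 242 to 296 with chitin and 235 to 306 with the combination, against 136 to 285 without treatment, and the chitin-containing groups differed from the others by 0.30 (standard error 0.077, interval 0.14 to 0.46, adjusted p = 0.112). With all tumors at equal read depth, the same Csf3r difference was 0.29 (adjusted p = 0.115). The Csf2rb difference of groups with chitin from those without was -0.12 in 4T1 (interval -0.42 to 0.18, adjusted p = 0.902) and 0.20 in 66cl4 (interval 0.00021 to 0.40, adjusted p = 0.319, limma). For the difference between the models of the anti-PD-1 effect, 0 of the 7 genes passed (limma), where the background was 0% as well (1041 genes at an unadjusted p under 0.05, and 0 after adjustment by limma-voom).

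**Figure D3:**
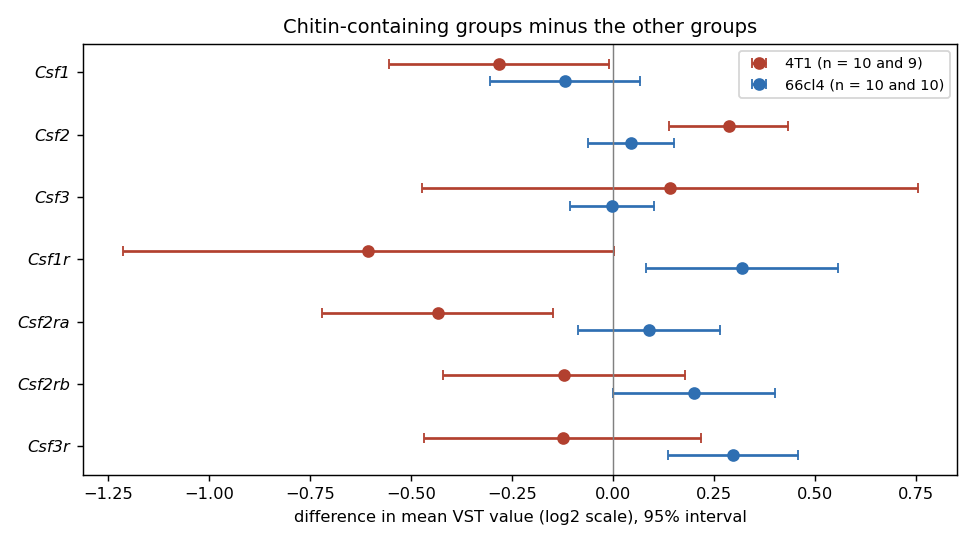
Difference in mean VST value (log2 scale) for each gene, as groups with chitin minus groups without, with its 95% interval, in 4T1 (10 against 9 tumors) and 66cl4 (10 against 10). The points of the 4 receptor genes lie below 0 in 4T1 and above 0 in 66cl4, and no difference passed the test after adjustment. For Csf3r and Csf2rb in 4T1, the point pools groups on either side of untreated. Mean VST values of Csf3r were 8.35 with chitin and 9.01 with the combination, against 8.64 without treatment. Those of Csf2rb were 9.74, 10.13 and 9.94 in the same order.

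Several marker lists had the same signs as Csf1r. Comparing groups with and without chitin, 0 of the 12 macrophage markers passed in either model, and their median difference was -0.58 in 4T1 (1 of 12 above 0) and 0.22 in 66cl4 (10 of 12 above 0), beside 0.004 and 0.0026 over all genes. The summed level of the macrophage markers in 4T1 was 40287 to 69112 normalized counts without treatment, 30716 to 123244 with anti-PD-1, 23140 to 81644 with chitin and 10510 to 68215 with the combination. In 66cl4, it was 50883 to 96451, 58861 to 88007, 60515 to 114653 and 77849 to 113985 in the same order. Dendritic cell markers had median differences of -0.40 in 4T1 (0 of 8 above 0) and 0.15 in 66cl4 (8 of 8), and T-cell markers of -0.50 (0 of 8) and 0.11 (8 of 8). For neutrophil markers the median difference was 0.17 in 4T1 (9 of 9 above 0) and -0.056 in 66cl4 (2 of 9 above 0). In 4T1, these comparisons pool unlike groups. Anti-PD-1 alone against untreated had medians of 0.65 for dendritic cell and 0.76 for T-cell markers (8 of 8 above 0 each). Chitin alone against untreated had -0.088 and -0.016 (3 of 8 above 0 each). The combination had -0.12 (2 of 8) and -0.20 (0 of 8). Lists of other tissue moved with anti-PD-1 alone as well, with medians of 1.74 for adipocyte (6 of 6 above 0) and 1.99 for lactating epithelium markers (3 of 3). Medians were below 0 for endothelium (-0.14) and mammary tumor epithelium (-0.15). A rise with anti-PD-1 alone was thus not particular to the immune lists. For macrophage markers, the medians against untreated were 0.41 with anti-PD-1 (12 of 12 above 0), -0.38 with chitin (1 of 12) and -0.39 with the combination (2 of 12). For neutrophil markers, chitin alone had -0.20 (2 of 9 above 0) and the combination 0.80 (9 of 9). Their summed level in 4T1 was 638 to 1495 normalized counts without treatment, 1111 to 2635 with anti-PD-1, 297 to 1983 with chitin and 1476 to 8568 with the combination. The part of these cells in the receptor values was not tested beyond the correlations that follow.

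Across tumors of 1 model, 31 relations were computed between ligands and receptors and between each gene and the mean VST value of the neutrophil or macrophage markers. Relations of Csf2 and Csf3 in 66cl4 were left out for too few reads. Of the 31, 15 passed (permutation tests, 100000 resamples, two-sided, Benjamini-Hochberg over the 31), 9 of 19 in 4T1 and 6 of 12 in 66cl4. Csf1r followed the macrophage markers most closely, with r = 0.9755 and rho = 0.967 in 4T1 (n = 19) and r = 0.927 and rho = 0.923 in 66cl4 (n = 20), each with an adjusted permutation p of 0.000103, where the unadjusted 1e-05 is the smallest the resamples allow. Without the 2 tumors farthest from the median, r was 0.958 and 0.867.

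Csf2ra followed the macrophage markers in 4T1 (r = 0.912, rho = 0.874, adjusted permutation p = 0.000103 for both, r = 0.83 without the 2 farthest tumors), but not in 66cl4 (r = 0.233, rho = 0.144, adjusted permutation p = 0.421 and 0.645, r = -0.149 without 2 tumors). Whether these coefficients differ between the models was not tested. Csf2rb did so in both models, with r = 0.736 and rho = 0.777 in 4T1 (adjusted permutation p = 0.00124 and 0.000886, r = 0.709 without 2 tumors) and r = 0.817 and rho = 0.732 in 66cl4 (adjusted permutation p = 0.000233 and 0.00172, r = 0.64 without 2 tumors). The alpha and the beta chain of the GM-CSF receptor went together in 4T1 (r = 0.677, rho = 0.712, adjusted permutation p = 0.00383 and 0.00276, r = 0.65 without 2 tumors). In 66cl4, the same relation rested on untreated tumor 1 and anti-PD-1-treated tumor 4 (r = 0.515, rho = 0.364, adjusted permutation p = 0.0404 and 0.188, r = 0.192 without them).

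In 4T1, Csf3r went with the neutrophil markers (r = 0.794, rho = 0.805, adjusted permutation p = 0.000517 and 0.000465, r = 0.621 without 2 tumors). In 66cl4, where these markers summed to 100.4 to 960 normalized counts, it did not (r = -0.336, rho = -0.271, adjusted permutation p = 0.258 and 0.322, r = -0.422 without 2 tumors), but went with the macrophage markers (r = 0.728, rho = 0.762, adjusted permutation p = 0.0012 and 0.000886, r = 0.729 without 2 tumors). Csf3r and macrophage markers in 4T1 had r = 0.374 over all 19 tumors and r = 0.818 without chitin-treated tumor 1 and combination-treated tumor 1 (rho = 0.6, adjusted permutation p = 0.208 for r and 0.0183 for rho), so that this relation depends on these tumors. Differences between the models in these coefficients were not tested.

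Csf1 and its receptor were related with opposite signs. In 4T1, tumors with more Csf1r had more Csf1 (r = 0.678, rho = 0.667, adjusted permutation p = 0.00383 and 0.00657, r = 0.594 without 2 tumors). In 66cl4, where Csf1 was 3.41-fold higher over all tumors, tumors with more Csf1r had less Csf1 (r = -0.649, rho = -0.593, adjusted permutation p = 0.00499 and 0.0183, r = -0.698 without 2 tumors). The same signs were found for Csf1 and macrophage markers, with r = 0.606 and rho = 0.558 in 4T1 (adjusted permutation p = 0.0142 and 0.0297, r = 0.528 without 2 tumors, adjusted permutation p = 0.0623) and r = -0.668 and rho = -0.725 in 66cl4 (adjusted permutation p = 0.00383 and 0.00172, r = -0.747 without 2 tumors). With each value centred on its treatment group, r between Csf1 and Csf1r was 0.632 in 4T1 and -0.59 in 66cl4.

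Csf3 ran against the macrophage markers in 4T1 (r = -0.781, rho = -0.789, adjusted permutation p = 0.000496 and 0.000868, r = -0.685 without 2 tumors) and showed no relation to its receptor gene (r = -0.0068, rho = -0.353, adjusted permutation p = 0.986 and 0.215, r = -0.451 without 2 tumors) or to the neutrophil markers (r = 0.172, rho = -0.154, adjusted permutation p = 0.596 and 0.645, r = -0.209 without 2 tumors). The tumors left out in each of these were combination-treated tumor 1 and anti-PD-1-treated tumor 2. Csf2 in 4T1 went with the neutrophil markers at r = 0.577 and rho = 0.467 (adjusted permutation p = 0.0213 and 0.0893), but this rested on combination-treated tumors 1 and 4 (r = 0.223 without them) and on the treatment groups (r = 0.148 on centred values). Csf2 had no relation to either of its receptor chains that passed (r = -0.307 with Csf2ra and 0.123 with Csf2rb, adjusted permutation p = 0.297 and 0.707, rho = -0.121 and 0.142, adjusted permutation p = 0.663 and 0.645, r = -0.0097 and 0.274 without 2 tumors).

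**Figure D4:**
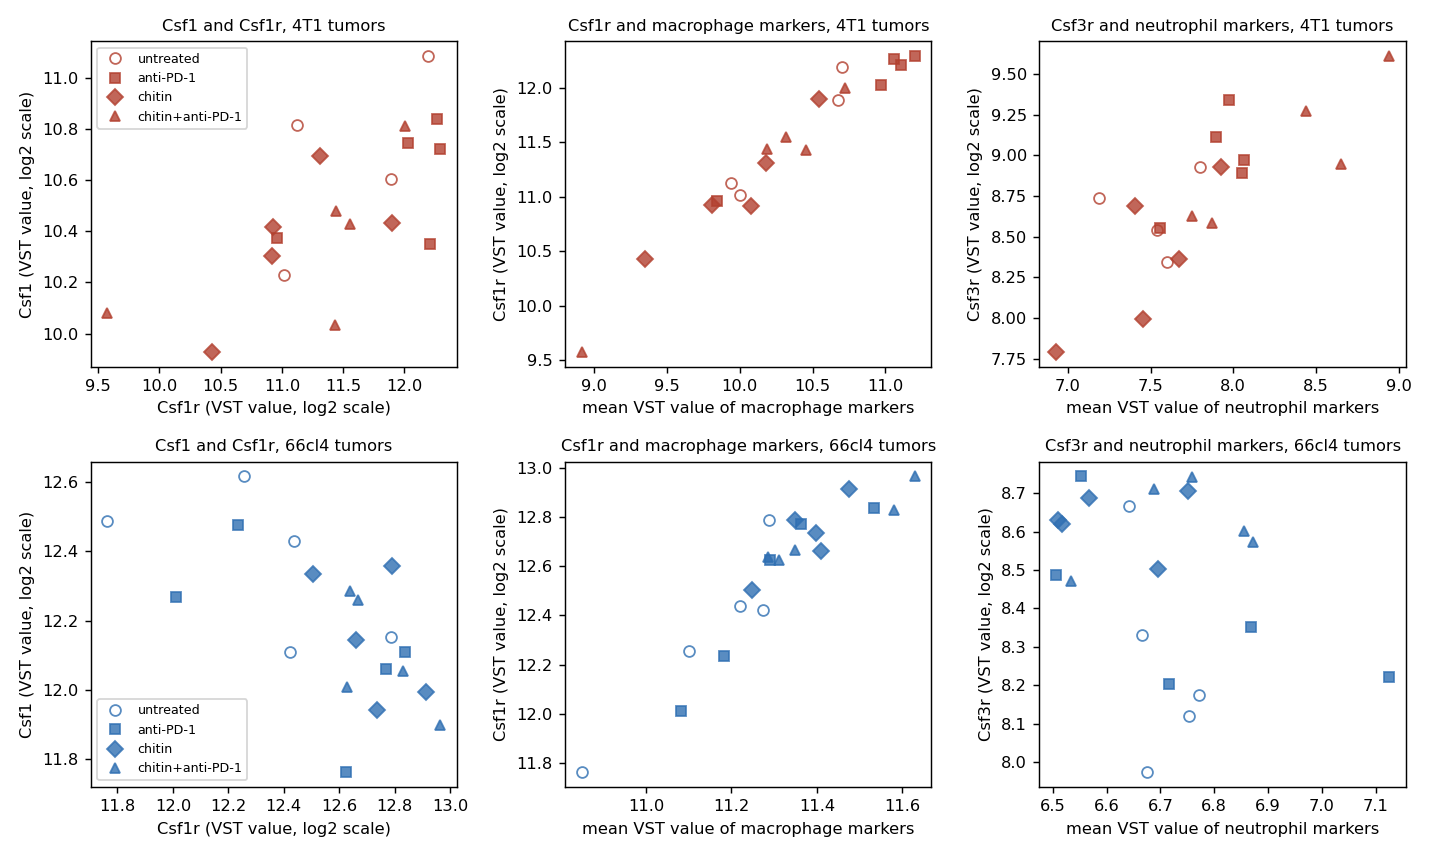
VST values (log2 scale) per tumor for Csf1 against Csf1r, Csf1r against the mean of the macrophage markers, and Csf3r against the mean of the neutrophil markers, in 4T1 (upper row, n = 19) and 66cl4 (lower row, n = 20), with symbols by treatment. Csf1 and Csf1r go together in 4T1 (r = 0.678) and run opposite in 66cl4 (r = -0.649), and Csf1r follows the macrophage markers in both.

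Genes whose values moved most like each member over all 39 tumors, after the 8 group means were taken off, are given as a description. Csf1r was most like Unc93b1 (r = 0.939, rho = 0.865), Rab3il1 (r = 0.933, rho = 0.836) and Man2b1 (r = 0.932, rho = 0.909), and Csf2ra like Fermt3 (r = 0.887), Fam78a (r = 0.868) and Tifab (r = 0.863). Csf2rb was most like its copy Csf2rb2 (r = 0.911), then Tacc1 (r = 0.874) and Acox3 (r = 0.855), and Csf3r like Ptafr, the receptor of platelet-activating factor (r = 0.747), Bmp2 (r = 0.725) and Wdr13 (r = 0.698). Among the ligands, Csf1 was most like Slc7a8 (r = 0.698), C5ar1, a complement receptor of myeloid cells (r = 0.689), and B430306N03Rik (r = 0.685). Csf3 was most like Zfand2a (r = 0.887, rho = 0.669), Zc3h12a (r = 0.878, rho = 0.667), which encodes a nuclease that degrades cytokine messages, and Kcmf1 (r = 0.855, rho = 0.578), with rho below r for each. Csf2, with its few reads, reached r = 0.624 with Srp19 and 0.623 with Mob4.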

How the data were processed

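The deposited values are log2-like values per gene and tumor: the authors used HISAT2 and mm10 for alignment, made strand-aware counts per gene, kept genes above a read minimum, and applied the variance stabilizing transformation of DESeq2 (versions and annotation not given in the sources used here). The transformation was inverted from its lowest value, which stands for 0 reads. This gave whole reads for 100% of values (within 0.001 reads), and the size factors of 39 of 39 tumors equalled those of the median-ratio method.

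Differences in VST values were tested by limma (version 3.58.1, R 4.3.3, eBayes with a mean-variance trend), per model for treatments and over all 8 groups for models and their interaction, with Benjamini-Hochberg adjustment over all 14318 genes. A gene passed at an adjusted p under 0.05. The procedure was tested on simulated data. The genes and lists were chosen with earlier results of these data known. All 7 members are named in the text, of each list the up to 4 genes with the smallest adjusted p, and 3 most alike genes per member, of which 1 is not reported here. Positions and promoters are from RefSeq (GRCm38.p6), in which 4 of the 7 genes had a promoter entry. Alternatives were a filter on the 25% lowest genes, no trend, other samples in the fit, median centring, quantile normalization, tumor weights, limma-voom on recovered reads, equal depth, a replicate block, a minimum difference of 1, and each tumor left out. Reads carry no molecular identifiers, and counting intervals cover counting error only.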

Additional observations from a re-analysis of the deposited data

Results flagged for a closer look

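Values that stood apart from their group were looked for in 48 groups of 4 or 5 tumors (the gap to the nearest tumor as a share of the whole range, above Dixon's 95% limit), of which chance alone gives about 1 in 20. This ratio was taken on VST values. The normalized counts printed beside it would give other ratios. The 3 found all lie in 2 4T1 tumors. In anti-PD-1-treated tumor 2, Csf3 was high, at 712 normalized counts against 87.7 to 134 in the other 4 tumors (ratio 0.842), and Csf1r was low, at 1866 against 4041 to 4891 (ratio 0.799). In tumor 1 of the combination group, Csf1r stood at 635 against 2635 to 3976 (ratio 0.765), beside the highest Csf3 of all tumors (887). In these tumors the macrophage markers summed to 30716 and 10510 normalized counts, the lowest of their groups, and these tumors were also the lowest of their groups in the summed markers of fibroblasts (15027 and 4104), endothelium (790 and 1214), T cells (823 and 249) and dendritic cells (1063 and 343). Neutrophil markers summed to 1111 and 8568, the lowest and the highest of their groups, and markers of mammary tumor epithelium to 31532 and 28296, the latter the highest of its group. No cause was tested.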

How the results depend on the processing

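The number of the 7 genes past the threshold moved as follows. Between untreated models it was 4, 2 with a minimum difference of 1, and 3 to 5 when 1 tumor was left out. Over the 4 treatment groups it was 7 and became 3 with a minimum difference of 1. It stayed at 0 in all treatment comparisons but for these exceptions, each with 1 gene, Csf2: in 4T1, chitin + anti-PD-1 against untreated with both models in 1 fit (1) and with the replicate block (1, adjusted p = 0.0212), the chitin-containing groups against the others and the combination against anti-PD-1 with both models in 1 fit or with tumor weights (1 each). For the difference between models of the chitin effect it was 2 with tumor weights (Csf1r and Csf2ra) and 0 to 2 when 1 tumor was left out. Of the relations, 15 passed, and 13 to 16 under the alternatives. Csf3 in 4T1, combination against untreated, turned from 0.24 to -0.046 with tumor weights and to -0.097 without combination tumor 1 (range over tumors left out -0.097 to 0.46). Csf1r there ran from -0.55 to 0.053. The cause was not tested, apart from the minimum difference, which by its construction removes calls. The filter on the lowest genes removed Csf2 and Csf3 from the test.

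Over all genes, tumor weights gave 960 calls in place of 0 for anti-PD-1 and 2127 for the combination against anti-PD-1 in 4T1, 297 and 185 for chitin in 4T1 and 66cl4, and, for the difference between models, 1004 in place of 14 for chitin and 331 in place of 0 for anti-PD-1. With both models in 1 fit, the first 3 were 60, 294 and 58. Without anti-PD-1-treated 4T1 tumor 2, the counts were 80 for anti-PD-1, 202 for the combination against anti-PD-1, and 677 and 86 for the differences between models, and the replicate block gave 104 for that of chitin. Quantile normalization gave 39 there, and without untreated 66cl4 tumor 3 the chitin-containing groups in 66cl4 had 269 calls. The minimum difference left 1414 of 7983 and 1331 of 11283 calls between models. Tumors with the same number were no more alike than others (median r of deviations 0.0045 against -0.007), so that the number was not taken to pair tumors. The replicate block changed no other call of the 7 genes. Reads limit Csf2 in both models and Csf3 in 66cl4.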

Other observations

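Il34, the other ligand of CSF1R, averaged 200.1 ± 66.0 normalized counts without treatment in 4T1 (SD, n = 4) and 116 ± 27.6 in 66cl4 (n = 5), which is opposite in direction to Csf1. Per kilobase of exon, the mean level of Il34 was 102 in 4T1 and 59.4 in 66cl4, beside 294 and 979 for Csf1. With treatment, Il34 was at 179 to 191 in 4T1 and 118 to 154 in 66cl4 as group means.

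Summed T-cell markers were at 823 to 2182 normalized counts in anti-PD-1-treated 4T1 tumors, 342 to 1194 without treatment, 280 to 1164 with chitin and 249 to 1015 with the combination. No gene of the list passed the test in a treatment comparison (limma). Summed adipocyte markers were also uneven, at 49.5 to 14023 in anti-PD-1-treated 4T1 tumors and 185 to 1064 in untreated ones. In 66cl4, summed T-cell markers were at 94.96 to 376 over all groups.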
